A study of Mus musculus with 59 samples.

Results

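The cytosolic ribosomal protein genes were taken as every gene of the expression table whose mouse symbol begins with Rpl or Rps and goes on as those of the large or small subunit proteins do (Rpl3, Rps27l, Rplp0), together with Rpsa, with pseudogenes named by a -ps suffix left out. This rule used symbols and no measured value. It found 83 of 47643 genes, of which 51 code for proteins of the large subunit and 32 for proteins of the small subunit or their paralogues. RNA was sequenced from 59 skeletal muscle samples of female NCI Ath/nude mice, 4 months of age, that carried a human melanoma xenograft, either one that causes cachexia (the wasting of muscle and body mass in cancer) or one that does not. Diaphragms came from mice with a cachectic melanoma given mock injections (n = 10) or recombinant Fibcd1 (rFibcd1, n = 10) and from mice with a non-cachectic melanoma given mock injections (n = 9) or rFibcd1 (n = 10). Tibialis anterior, a fast limb muscle, and soleus, a slow one, came from mice with a cachectic (n = 5 each) or non-cachectic (n = 5 each) melanoma, and their labels name no injection. Fibcd1 is a fibrinogen-domain protein, here given as a recombinant protein into the peritoneal cavity, and mock injections held the carrier alone. Nude mice lack mature T cells, and each kind of melanoma was a patient-derived tumour line, so that cachexia and the identity of the tumour cannot be told apart.

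The cytosolic ribosome translates all mRNAs that leave the nucleus. Its large subunit forms peptide bonds and its small subunit reads the mRNA, and both are built in the nucleolus from ribosomal RNA and an equal supply of each protein. Most ribosomal protein mRNAs start with a run of pyrimidines at the cap (the 5′ terminal oligopyrimidine motif), through which the mTORC1 kinase and the RNA-binding protein LARP1 set how strongly they are translated. Skeletal muscle is known for one tissue-specific exchange, in which Rpl3l replaces Rpl3 near the peptidyl transferase centre of the ribosome in mature fibres.

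The start-site motif is shown here for a choice of the named members, with long and with short runs, because it is the sequence feature that these genes are best known to share. Of the 83 members, 61 had a promoter window in RefSeq (build GRCm38.p6), 10 of them more than one, and 22 had none, among them Rpl3 and Rpl30. Each line below gives 15 bases before the annotated start and 15 bases from it on, 5′ to 3′ on the coding strand, with the longest unbroken pyrimidine run that reaches within 5 bases of the start in capitals.
Rps6 (chr4:86857353-86857382, minus strand): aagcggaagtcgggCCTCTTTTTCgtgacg
Rplp2 (chr7:141447636-141447665, plus strand): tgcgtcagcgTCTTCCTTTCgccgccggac
Rps27 (chr3:90213634-90213663, minus strand): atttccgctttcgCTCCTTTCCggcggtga
Rps27l (chr9:66946071-66946100, plus strand, one of 2 annotated starts): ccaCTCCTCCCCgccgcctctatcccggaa
Rpl12 (chr2:32961697-32961726, plus strand): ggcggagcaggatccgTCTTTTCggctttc
Rpl34 (chr3:130730323-130730352, minus strand, one of 2 annotated starts): CCTTCCTTTTCCTCTTCCggggacggtgct
Rpl34 (chr3:130730384-130730413, minus strand, the other start): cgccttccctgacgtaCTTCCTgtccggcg
Rpl36al (chr12:69184053-69184082, minus strand): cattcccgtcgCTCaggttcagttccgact
Rpl3l (chr17:24727811-24727840, plus strand, one of 2 annotated starts): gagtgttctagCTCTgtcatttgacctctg
Rps7 (chr12:28635939-28635968, minus strand): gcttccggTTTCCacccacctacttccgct
Rps12 (chr10:23787195-23787224, minus strand): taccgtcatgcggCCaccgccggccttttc
Rplp0 (chr5:115559452-115559481, plus strand): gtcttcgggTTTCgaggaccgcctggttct
Rpl36a (chrX:134585639-134585668, plus strand): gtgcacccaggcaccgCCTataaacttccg
In Rps6, Rplp2, Rps27, Rpl12 and Rpl34 the run spans 6 or more pyrimidines at or beside the start. In Rps27l a run of 9 ends before the start shown, and a shorter run (cctct) begins just after that start. At its other annotated start the run is 4 bases long. In Rps7, Rps12, Rplp0, Rpl36a, Rpl36al and Rpl3l the run is 2 to 5 bases long at the starts shown.

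A C followed by at least 4 pyrimidines began exactly at the annotated start in 13 of the 61 members with a window (21.3%) and in 813 of all 27025 genes with one (3.01%). Within 5 bases of the start such a run began in 28 members (45.9%) and in 5718 genes (21.2%). The ETS core motif CCGGAAG, searched on both strands of the 300 bases from 250 before to 50 after the start, was found in 25 members (41%) and in 2683 genes (9.93%). The YY1 motif AAGATGG, searched the same way, was found in 9 members (14.8%) and in 1967 genes (7.28%), and its first 3 letters are the last 3 of the ETS core, so that matches can overlap. By subunit, a run at the exact start was found in 7 of 38 large subunit genes (18.4%) and in 6 of 23 small subunit genes (26.1%). These are matches to letters in annotated windows, and an annotated start a few bases off the true one moves the run out of place.

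Expression was given as TPM, transcript abundance corrected for gene length and scaled to the same total in every library, so that a level is a share of all transcripts and the sequencing depth behind it is unknown. The muscle fibre genes Acta1, Ckm, Myh1, Myh2, Myh4 and Myh7 summed to 27413 to 76604 TPM in all libraries, and the melanocyte genes Pmel, Mlana, Tyr, Tyrp1 and Dct to at most 2.4 TPM. The libraries fell into 2 kinds by the processed pseudogene Pcna-ps2, at 1 TPM or more (called the high state here) or under it (the low state). The high state held 9 of 10 mock and 8 of 10 rFibcd1 diaphragms with a cachectic melanoma, 3 of 9 mock and 6 of 10 rFibcd1 diaphragms with a non-cachectic melanoma, all 10 limb muscles with a cachectic melanoma and none with a non-cachectic one. No label names this difference, it was defined from the data, and in the limb muscles it cannot be told apart from the melanoma.

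**Figure D1:**
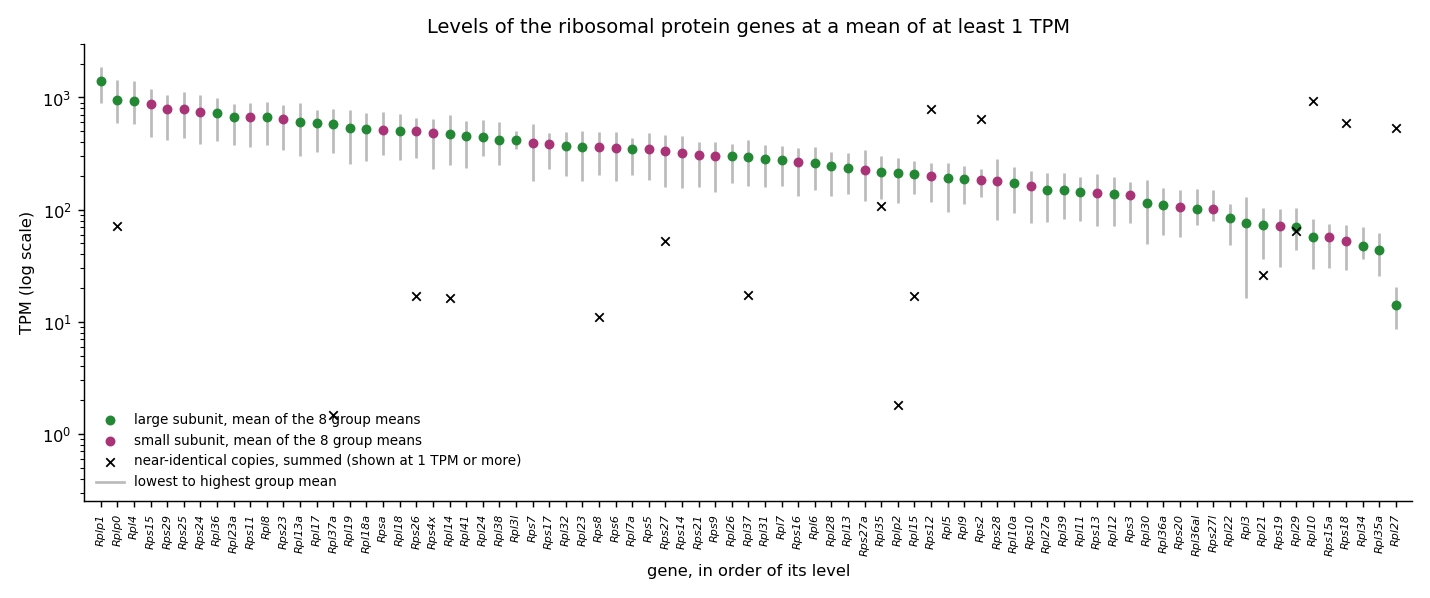
Level of the 79 ribosomal protein genes that passed the filter on low values, ordered from highest to lowest (TPM, log axis), large and small subunit in separate colours. Points are the mean of the 8 group means, grey lines run from the lowest to the highest group mean, and crosses give the summed TPM of near-identical copies at 1 TPM or more. The points run from 1398 TPM (Rplp1) to 14.2 TPM (Rpl27), and for Rpl27, Rpl10, Rps18, Rps12 and Rps2 the cross lies above the point.

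Of the 83 members, 79 reached 1 TPM in enough libraries to be tested, 48 of the large and 31 of the small subunit. The other 4 were paralogues of abundant members. Rpl10l and Rps4l were listed at 0 in all 59 libraries, Rpl39l reached at most 0.663 TPM and Rpl6l at most 0.362 TPM. As means of the 8 groups, the stalk proteins Rplp1 (1398 TPM) and Rplp0 (958.6 TPM) were highest, followed by Rpl4 (926.2 TPM), Rps15 (879.5 TPM), Rps29 (794.1 TPM) and Rps25 (783 TPM). The group means of these genes overlap from one place to the next in this order, and Rplp1 held the first place in all 8 groups. At the lower end stood Rpl27 (14.2 TPM), Rpl35a (44.0 TPM), Rpl34 (47.0 TPM), Rps18 (52.6 TPM), Rps15a (56.4 TPM) and Rpl10 (56.5 TPM).

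Several of these low values go with near-identical copies. The annotation held 444 copies whose sequence matched a member's coding sequence at 95% identity or more over at least 80% of its length, 429 of them pseudogenes, and 71 members had at least one. The table listed 402 of the copies at 0 in all libraries and 20 at a mean of 1 TPM or more. For 5 members the copies together exceeded the member: Rpl27 (mean over all libraries 14.06 TPM, copies 533.5 TPM), Rpl10 (55.6 and 932.4 TPM), Rps18 (52.81 and 593.9 TPM), Rps12 (203.2 and 789.4 TPM) and Rps2 (187.7 and 639.5 TPM). How reads that match several places were assigned is not stated, so the values of these 5 genes are uncertain. Rps12, a small subunit protein of the ribosome's beak, had single very low values. Its lowest value in diaphragm with a cachectic melanoma and rFibcd1 was 9.85 TPM in a library that had the highest value of its group for the copy Rps12-ps3, at 2204 TPM, against 613 to 1326 TPM in the other 9. In soleus with a cachectic melanoma the lowest Rps12 value was 2.26 TPM beside 1222 TPM of Rps12-ps3, which lies within the range of the other 4 libraries (898 to 1627 TPM). In 4 of the 8 groups the library with the lowest Rps12 had the highest Rps12-ps3, and in mock diaphragm with a cachectic melanoma it ranked 8 of 10.

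Summed over all members, ribosomal protein genes made up a larger share of transcripts in muscles of mice with a cachectic melanoma. In mock diaphragms the share was 2.69, 3.16 and 3.93% (lowest, median and highest, mean 3.23% ± 0.431 SD, n = 10) with a cachectic melanoma and 1.89, 2.07 and 2.31% (2.09% ± 0.123, n = 9) with a non-cachectic one. In tibialis anterior it was 2.39, 2.46, 2.56, 2.66 and 5.68% (3.15% ± 1.42, n = 5) with a cachectic melanoma, against 1.49 to 1.62% (1.54% ± 0.0489, n = 5). In soleus it was 3.30, 3.35, 3.44, 3.71 and 4.63% (3.69% ± 0.549, n = 5), against 2.28 to 2.60% (2.45% ± 0.123, n = 5). In these 3 comparisons the groups did not overlap. In rFibcd1 diaphragms they did, with 2.42, 3.25 and 6.02% (3.47% ± 1.09, n = 10) and 1.96, 2.30 and 3.07% (2.30% ± 0.332, n = 10).

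The shares of the subunits moved side by side. Large subunit genes held 1.91% ± 0.245 (SD, n = 10) of transcripts in mock diaphragm with a cachectic melanoma and 1.24% ± 0.0677 (n = 9) with a non-cachectic one, and small subunit genes 1.33% ± 0.187 and 0.846% ± 0.056. The ratio of large to small was 1.44 and 1.47 in these groups, and its group means ran from 1.43 (diaphragm, cachectic, rFibcd1) to 1.64 (tibialis anterior, non-cachectic). Mitochondrially encoded transcripts, which take a large part of all TPM, were lower in the same groups, at a mean of 38.1% against 47.5% in mock diaphragm, 38.8% against 48.5% in tibialis anterior and 30.5% against 41.1% in soleus. As a share of the remaining transcripts, ribosomal protein genes held 4.59 to 5.88% against 3.79 to 4.15% in mock diaphragm, 4.19 to 7.59% against 2.85 to 3.16% in tibialis anterior and 4.76 to 6.10% against 4.07 to 4.40% in soleus, again without overlap.

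Some libraries stood apart by nearly all members. In tibialis anterior with a cachectic melanoma, library 8 had the highest value of its group for 78 of 79 members, at a median of 2.23 times the median of the other 4. In the same library the muscle fibre genes summed to 30897 TPM against 49546 to 56367 TPM in the others, macrophage genes to 117 TPM against 18.2 to 71.5 TPM and neutrophil genes to 53.5 TPM against 7.01 to 20.3 TPM. In rFibcd1 diaphragm with a cachectic melanoma, library 11 was highest for 74 members (1.83 times), with fibroblast genes at 497 TPM against 625 to 1767 TPM and red cell genes at 436 TPM against 1203 to 8749 TPM. In rFibcd1 diaphragm with a non-cachectic melanoma, library 56 was highest for 73 members (1.39 times), with B and plasma cell genes at 736 TPM against 6.71 to 199 TPM adipocyte genes at 6479 TPM against 672 to 2992 TPM and fibre genes at 29674 TPM against 36564 to 44123 TPM. In soleus with a cachectic melanoma, library 8 was highest for 74 members (1.32 times), with adipocyte genes at 7174 TPM against 687 to 2260 TPM, fibre genes at 76604 TPM against 57238 to 69081 TPM, endothelial genes at 204 TPM against 122 to 151 TPM, neutrophil genes at 31.7 TPM against 7.33 to 21.7 TPM and red cell genes at 183 TPM against 590 to 1143 TPM. Other marker lists also lay outside their group's range in some of these libraries, such as endothelial genes, at 199 TPM against 92.9 to 123 TPM in tibialis anterior library 8 and at 94.6 TPM against 160 to 239 TPM in diaphragm library 11. Each of these libraries also had the lowest mitochondrial share of its group. It was 25.1% (next 38.9%) in tibialis anterior library 8 and 24.1% (next 30.5%) in soleus library 8. In diaphragm it was 29.8% (next 32.7%) in library 11 and 39.3% (next 41.1%) in library 56. As a share of the remaining transcripts, ribosomal protein genes were also highest in these libraries. How many of all genes were highest there was not counted. The part of the marker genes and of the mitochondrial share in the ribosomal protein values was not tested.

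**Figure D2:**
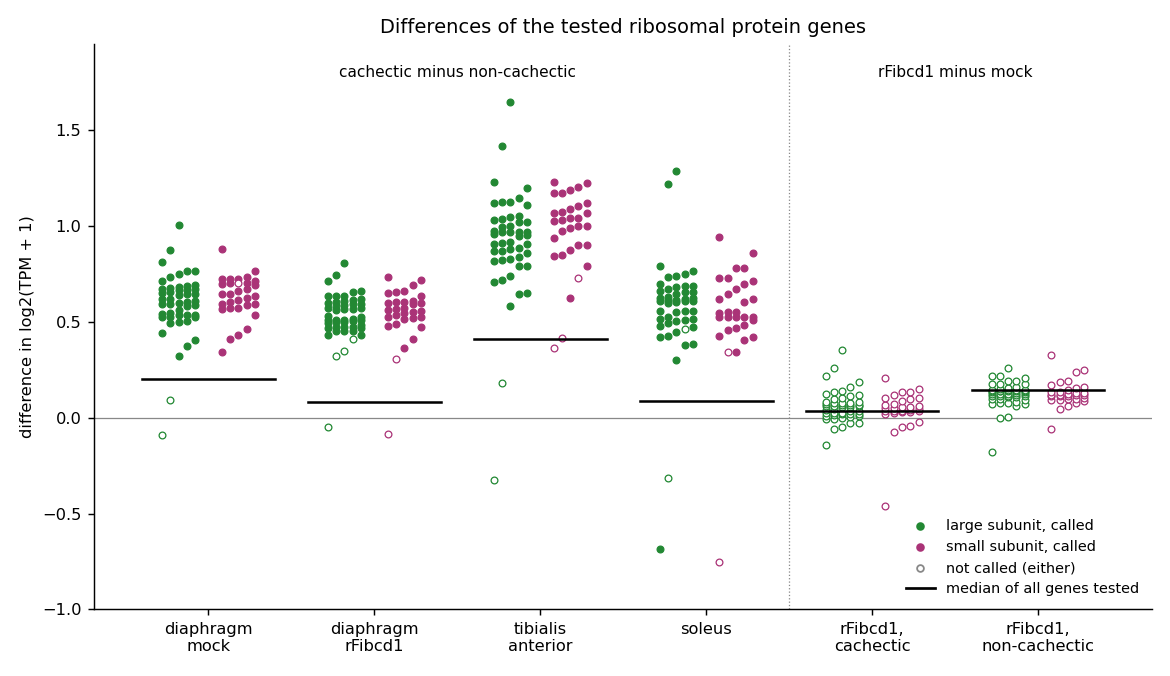
Difference in log2(TPM + 1) for the 79 tested ribosomal protein genes (one point each, large and small subunit apart) in the 4 comparisons of cachectic with non-cachectic melanoma and the 2 comparisons of rFibcd1 with mock. Filled points passed an adjusted p of 0.05, and the black line marks the median of all genes tested. Nearly all points lie above the line in the melanoma comparisons, where 73 to 76 genes passed upward, and none passed in the rFibcd1 comparisons.

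In mock diaphragms 76 of the 79 members tested rose with a cachectic melanoma, 46 of 48 in the large and 30 of 31 in the small subunit, and none fell. Across all 13426 genes tested 33.5% changed in this comparison, 30.9% upward. The members' median difference was 0.62 on the log2(TPM + 1) scale (from −0.09 to 1.01), beside 0.20 over all genes, and that scale understates the change of low genes. Of the 1561 other genes with a mean of 50 TPM or more, 39.1% rose, at a median of 0.21. For 64 members every cachectic library lay above every non-cachectic one, which held for 4.07% of all genes. With libraries scaled by the median ratio of their genes, which brings the all-gene median to 0.01, 42 members rose at a median of 0.39 (7.39% of all genes rose), and the count was 67 without mitochondrial transcripts (6.43%). In bulk muscle, fewer cells of a type and less RNA per cell cannot be told apart. By the study's methods, replicates of one group were taken from different animals.

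The largest rise was that of Rpl30, a large subunit protein (chr15:34440505-34443640, minus strand, GRCm38). It stood at 96.6, 142 and 180 TPM (lowest, median and highest, n = 10) with a cachectic and at 43.9, 72.6 and 107 TPM (n = 9) with a non-cachectic melanoma. Its groups overlapped, and the difference was 1.01 (SE 0.199, adjusted p = 0.000335), or 0.57 with the library state as a term (adjusted p = 0.00679). Rps7, a small subunit protein (chr12:28630854-28635953, minus strand), followed with 340, 493 and 662 TPM against 231, 270 and 348 TPM. Only the lowest cachectic library reached into the other group, and Rps7 rose by 0.88 (SE 0.134, adjusted p = 2.25e-05). Rpl3 (chr15:80077791-80091868, minus strand), which lies near the catalytic centre, rose by 0.87 (SE 0.198, adjusted p = 0.00119). It stood at 66.7, 109 and 133 TPM against 46.0, 55.8 and 66.5 TPM, without overlap.

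The smallest rises were those of Rpl36al (0.32, adjusted p = 0.0215), Rps27l (0.34, adjusted p = 0.00303) and Rpl27 (0.37, adjusted p = 0.0256). Rpl36al is the autosomal paralogue of the X-linked Rpl36a, and Rps27l a paralogue of Rps27 known as a p53 target. With median-ratio scaling the differences of all 3 were 0.09, 0.11 and 0.16 and none passed the test. Only 3 members did not pass in the unscaled comparison. These were Rps12 (0.70, 95% interval −0.11 to 1.51), Rpl3l (0.09, −0.05 to 0.23) and Rpl34 (−0.09, −0.56 to 0.38).

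**Figure D3:**
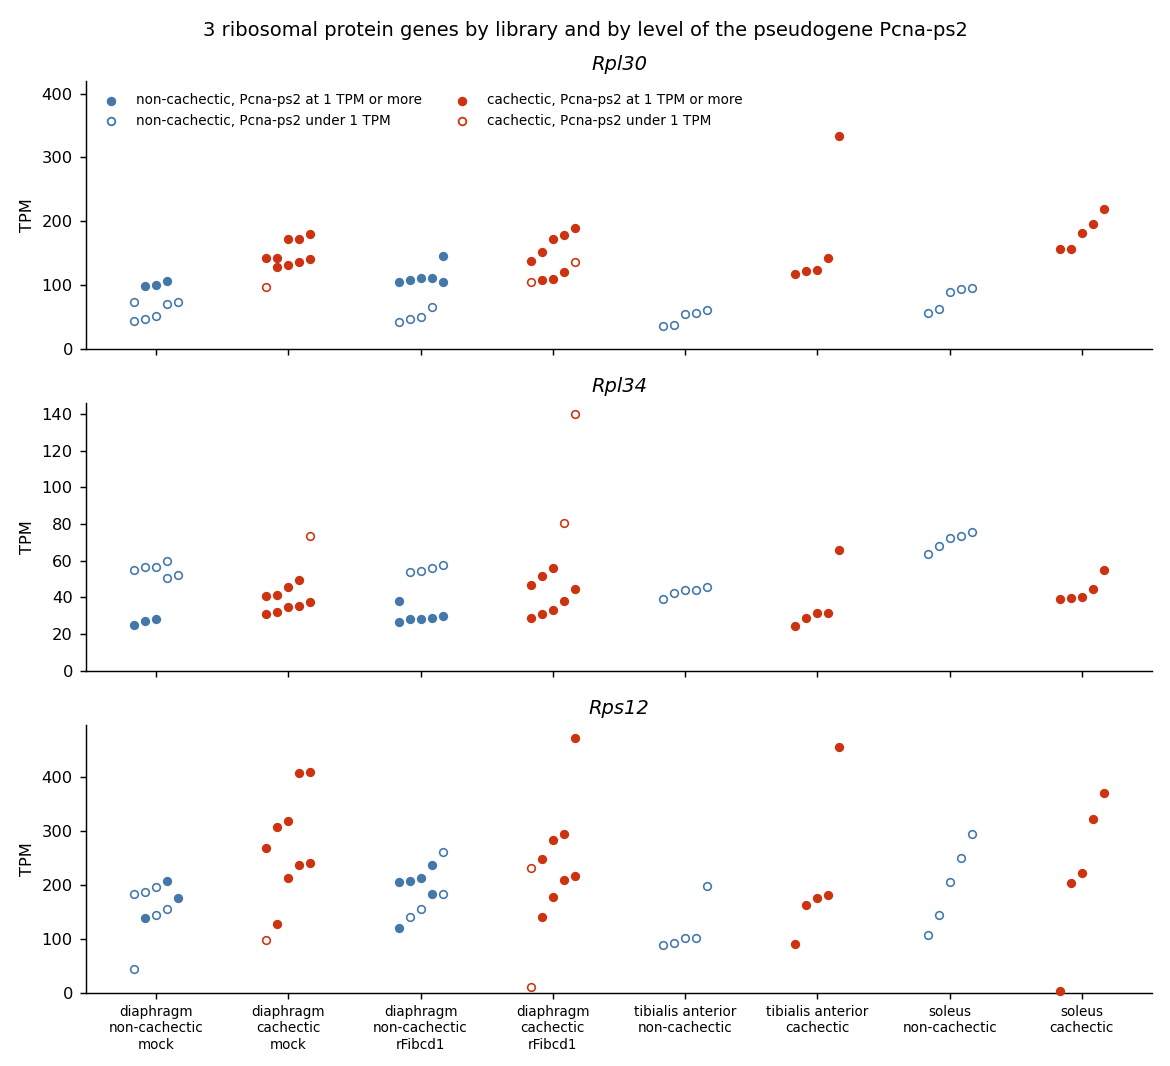
TPM of Rpl30, Rpl34 and Rps12 per library in the 8 groups, filled for the high state (Pcna-ps2 at 1 TPM or more) and open for the low state. Within non-cachectic mock diaphragms the 3 high-state libraries have Rpl34 at 25.1 to 28.3 TPM and the 6 low-state ones at 50.3 to 59.7 TPM, and the order is the opposite for Rpl30.

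A few members differed between the library states. In diaphragm, with melanoma and treatment in the model, 8186 of 13426 genes (61%) differed between the states, among them 6 of the 79 members. Rps12 (0.83, adjusted p = 0.0201), Rpl30 (0.78, adjusted p = 1.23e-06), Rps14 (0.43), Rpl3 (0.37) and Rps7 (0.35) were higher in the high state, and Rpl34 (−1.04, adjusted p = 4.96e-11) was lower. The members' median was 0.10, beside 0.23 over all genes. For Rpl34, a large subunit protein (chr3:130726831-130730398, minus strand), mock diaphragms with a non-cachectic melanoma stood at 25.1, 27.1 and 28.3 TPM in the 3 high-state libraries and at 50.3 to 59.7 TPM in the 6 low-state ones, without overlap. With a cachectic melanoma it stood at 30.9 to 49.5 TPM in the 9 high-state libraries and at 73.6 TPM in the other, so that within each state its cachectic values were the higher ones. Rpl30 showed the opposite order, with 99.0, 99.8 and 107 TPM in the high state and 43.9 to 73.1 TPM in the low state of non-cachectic mock diaphragms. Within the high state it stood at 128 to 180 TPM with a cachectic melanoma, above all 3 of those values.

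The rise of the group as a whole was also seen within the high state. There 53 of 79 members rose in mock diaphragm at a median of 0.57, beside 0.17 over all genes and 5.69% of all genes changed, and 76 members had an unadjusted p under 0.05. With the state as a term in the model 74 members rose, at a median of 0.56 (12.3% of all genes rose). As shares, the 9 high-state libraries with a cachectic melanoma held 2.75 to 3.93% and the 3 with a non-cachectic one 2.15 to 2.31%, without overlap.

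Under rFibcd1 the comparison of melanomas in diaphragm also gave mostly rises. Of 79 members 73 rose with a cachectic melanoma, 44 of the large and 29 of the small subunit, none fell, and 9.11% of all genes changed, 7.14% upward. The median was 0.55, beside 0.08 over all genes, and 57 members rose at a median of 0.48 with median-ratio scaling (4.23% of all genes rose). Of other genes with a mean of 50 TPM or more, 13.4% rose. No member's groups were free of overlap, as was true of all but 0.0521% of genes in the upward direction. The calls depended on the test and on the libraries used. With Dunn's rank test no member passed, and neither did any other gene, although 76 members had an unadjusted p under 0.05. In a model of these groups alone 41 passed (2.61% of all genes). Among high-state libraries no member and no other gene passed (members' median 0.34, with 70 members at an unadjusted p under 0.05).

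Rpl3 had the largest rise in rFibcd1 diaphragm, at 61.9, 102 and 184 TPM (lowest, median and highest, n = 10) with a cachectic and 41.4, 60.6 and 155 TPM (n = 10) with a non-cachectic melanoma. The groups overlapped, also without the library at 155 TPM (the next stood at 85.7 TPM), and the difference was 0.81 (adjusted p = 0.0075). Rpl30 rose by 0.74 (adjusted p = 0.0133) and Rps14, a protein of the small subunit's platform, by 0.74 (adjusted p = 0.00315). All 3 are among the genes that were higher in the high state, which held 8 of 10 cachectic and 6 of 10 non-cachectic libraries here. With the state as a term Rpl3, Rpl30 and Rps14 rose by 0.73, 0.59 and 0.65, and among high-state libraries alone their differences were 0.50, 0.33 and 0.37 and did not pass. The smallest rises were those of Rps13 (0.36), Rps27l (0.41) and Rpl28 (0.43). The 6 members that did not pass were Rpl10 (0.41, adjusted p = 0.062), Rpl15 (0.32), Rps2 (0.31), Rpl34 (0.35), Rpl3l (−0.05) and Rps12 (−0.08).

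No difference in a ribosomal protein gene with rFibcd1 was detected in the unweighted model of all diaphragms. In diaphragm with a cachectic melanoma none of 79 passed limma's test, and 0.0447% of all genes did. An unadjusted p under 0.05 was found for 3 members (1 by Dunn's test), beside 1412 of 13426 genes by limma. With a non-cachectic melanoma none passed, and 0.417% of all genes did. There no member had an unadjusted p under 0.05 by either test, beside 2332 genes by limma. In that comparison 5 members passed with array weights (39.9% of all genes) and 2 in a model of these groups alone (19.6%). The medians were 0.06 and 0.12, beside 0.04 and 0.15 over all genes. The 95% intervals of single members ran from −1.25 to 0.71 in the first comparison and from −0.65 to 1.14 in the second. With a cachectic melanoma the lowest adjusted p was that of Rpl27 (0.35, interval 0.10 to 0.61, adjusted p = 0.314), a gene made uncertain by its copies. With a non-cachectic melanoma it was that of Rps7 (0.25, interval −0.02 to 0.52, adjusted p = 0.3). Rpl3 differed by 0.13 (adjusted p = 0.851) and 0.19 (adjusted p = 0.521), and Rpl3l by −0.14 (adjusted p = 0.455) and −0.00 (adjusted p = 0.98). For the interaction of melanoma and rFibcd1 none of the 79 passed (none at an unadjusted p under 0.05, beside 1180 of all genes). The median was −0.07, beside −0.11 over all genes, and 0.0223% of genes changed.

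In tibialis anterior 74 of 79 members rose with a cachectic melanoma, 46 of 48 in the large and 28 of 31 in the small subunit, and none fell. Here 60.2% of all genes changed, 56.4% upward, at an all-gene median of 0.41, so that the members' median of 0.97 has to be read against a shift of the whole table. With median-ratio scaling 67 members rose and 1 fell, at a median of 0.47 (18.4% of all genes rose). Of the other genes at 50 TPM or more 52.3% rose, at a median of 0.35. For 75 members every cachectic library lay above every non-cachectic one, as in 49.1% of all genes. Leaving out library 8, which stood apart, 76 members rose and 1 fell, and 61.1% of all genes rose.

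Rpl30 rose most, from 36.2, 37.7, 55.0, 56.6 and 61.2 TPM with a non-cachectic to 118, 123, 123, 142 and 334 TPM with a cachectic melanoma. The groups lay far apart even without the highest library, and the difference was 1.65 (SE 0.272, adjusted p = 0.0012), or 1.37 without library 8. All cachectic libraries of this muscle were of the high state and all others of the low state, so for Rpl30, and for Rpl3 below, state and melanoma cannot be told apart. Rpl3 followed with 14.4, 15.2, 16.2, 17.9 and 18.3 TPM against 27.7, 33.2, 34.2, 36.2 and 166 TPM, the highest being library 8. Its difference was 1.42 (SE 0.388, adjusted p = 0.0112), and 0.96 without that library. Rpl12, at the base of the stalk, stood at 66.3 to 80 TPM and at 126, 132, 133, 151 and 411 TPM, a difference of 1.23 (adjusted p = 0.00486), or 0.91 without library 8.

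Rps25, a small subunit protein with a role in internal initiation, rose by 1.23 as well (adjusted p = 0.00367). The smallest rises were those of Rpl9 (0.58), Rps27l (0.62) and Rplp0 (0.65, adjusted p = 0.0302). Rplp0, the scaffold of the stalk, stood at 555, 599, 601, 613 and 613 TPM against 740, 748, 763, 863 and 1942 TPM. Without library 8 its difference was 0.38 with an adjusted p of 0.000385. Of the 10 refits with a single library left out, 5 took Rplp0 over the threshold, and the refit without library 8 was not among them. The 5 members that did not pass were Rps12 (0.73), Rpsa (0.42), Rps2 (0.36), Rpl3l (0.18, adjusted p = 0.123) and Rpl34 (−0.33, adjusted p = 0.189).

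In soleus 74 of 79 members rose with a cachectic melanoma, 45 of the large and 29 of the small subunit, and 1 fell. In this muscle 25.1% of all genes changed, 17.5% upward and 7.54% downward, and the all-gene median was 0.09, while the members' median was 0.60. With median-ratio scaling 73 rose and 1 fell, at a median of 0.51, and without mitochondrial transcripts 61 rose and 2 fell (15.2 and 7.46% of all genes rose). Of the other genes at 50 TPM or more 35.4% rose, at a median of 0.20. Every cachectic library lay above every non-cachectic one for 73 members (14.6% of all genes) and below for 1 member (5.4%).

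Rpl3 rose most in soleus, from 44.2, 46.5, 50.7, 52.9 and 56.6 TPM to 90.6, 95.9, 96.1, 163 and 209 TPM. All 5 cachectic libraries were above all others, and the difference was 1.28 (SE 0.215, adjusted p = 0.00206). Rpl30 rose by 1.22 (adjusted p = 0.000573), from 55.9, 61.5, 88.5, 93.7 and 94.5 TPM to 157, 157, 181, 196 and 219 TPM. For both genes the library state coincides with the melanoma here as well. Rps28, a small subunit protein at the mRNA exit, stood at 126 to 150 TPM and at 175, 216, 232, 265 and 529 TPM and rose by 0.94 (adjusted p = 0.0135), with the highest value in library 8.

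The member that fell was Rpl34, from 63.5, 67.8, 72.4, 73.4 and 75.6 TPM to 39.3, 39.7, 40.3, 44.6 and 54.6 TPM. The groups did not overlap and the difference was −0.69 (adjusted p = 0.000897). All soleus libraries with a cachectic melanoma were of the high state and all others of the low state, and within diaphragm Rpl34 was lower in the high state, so state and melanoma cannot be told apart for this gene in soleus. The smallest rises were those of Rpl22, an RNA-binding large subunit protein (0.30, adjusted p = 0.0327), and Rps2 (0.35, adjusted p = 0.00617). Rpl22 lost its call when any of 6 of the 10 libraries was left out, for instance without cachectic library 8 (0.24, adjusted p = 0.0502). Rpl27 (0.46), Rpsa (0.34), Rpl3l (−0.31, adjusted p = 0.14) and Rps12 (−0.75, 95% interval −3.14 to 1.63) did not pass.

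The melanoma difference itself was compared between muscles in one model of the mock diaphragms and the limb muscles. Between diaphragm and tibialis anterior none of 79 members differed by limma's test (29 at an unadjusted p under 0.05, beside 3295 of all 13501 genes). The median was −0.35 (−0.43 to −0.11 with single libraries left out), beside −0.19 over all genes and 5.04% of genes changed. Between diaphragm and soleus none differed (2 at an unadjusted p under 0.05, beside 2134 of all genes). The median was 0.05, beside 0.12 over all genes and 2.52% changed. Between tibialis anterior and soleus the median over members was 0.37 (0.135 to 0.451 with single libraries left out), beside 0.30 over all genes. Here 20.4% of all genes changed, and 6 members differed, all with a higher value of cachectic against non-cachectic in tibialis anterior (19.1% of all genes in this direction). These were Rps27 (0.67, adjusted p = 0.0381), the X-linked small subunit gene Rps4x (0.60, adjusted p = 0.0227), Rpl22 (0.58, adjusted p = 0.0298), Rps9 (0.54, just under the threshold), Rpl7a (0.49, adjusted p = 0.0371) and Rpl3l (0.49, adjusted p = 0.0241). The first 5 rose in both limb muscles, whereas Rpl3l passed in neither and its values were 0.18 in tibialis anterior and −0.31 in soleus. Without tibialis anterior library 8 only 3 members passed, and Rps27 (0.40), Rps9 (0.30) and Rpl7a (0.29) were not among them. The share of all genes in that refit is not given here, so the drop cannot be set against the whole table. With median-ratio scaling none of the 6 passed, at differences of 0.08 to 0.25, and 1 other member passed with the lower value in tibialis anterior (11.5% of all genes differed, 3.77% with the higher value there). Other settings gave more calls among members and among all genes, namely 32 members without mitochondrial transcripts (33% of all genes), 11 with array weights (26.7%) and 14 without tibialis anterior cachectic library 6 (29.1%), and leaving out single libraries gave 2 to 14 in all. For diaphragm against tibialis anterior the first 3 of these settings gave 27, 4 and 4 members, all with the larger difference in tibialis anterior, and 16.8, 11 and 11.7% of all genes. Column numbers recur between the muscles without a label that says what they mark (deviations correlated over 0.1 in 28 of 30 same-numbered pairs). With this number as a replicate block 13 members differed between diaphragm and tibialis anterior, 1 between diaphragm and soleus and 35 between tibialis anterior and soleus, beside 17.2, 7.36 and 41.2% of all genes.

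In mice with a non-cachectic melanoma the muscles differed in their ribosomal protein share, and how many members differed depended on the scaling. As TPM, soleus held the largest share (2.28 to 2.60%), then mock diaphragm (1.89 to 2.31%, overlapping with soleus) and tibialis anterior (1.49 to 1.62%). Between tibialis anterior and soleus 74 of 79 members were lower in tibialis anterior (69.5% of all genes differed, 63.9% in this direction), at a median of −0.70, beside −0.47 over all genes, whereas with median-ratio scaling 10 were lower and 3 higher (53.3% of all genes differed, 28.2% upward). Between diaphragm and tibialis anterior 64 were higher in diaphragm (72.5% of all genes differed, 64% in this direction), at a median of 0.47, beside 0.44 over all genes, whereas with median-ratio scaling the direction turned and 5 were higher and 21 lower (70.9% of all genes differed, 34.6% upward). Between diaphragm and soleus 15 were lower in diaphragm (38.8% of all genes differed, 22.1% in this direction), at a median of −0.22, beside −0.04 over all genes, and 31 with median-ratio scaling (47.2% of all genes differed, 23.2% upward). Without tibialis anterior library 8, which enters the shared estimate of spread, 47 were lower in the last comparison (45.3% of all genes differed), and 41 with the column number as a replicate block (49.9%). Leaving out single libraries gave 7 to 47 there, and fewer than 15 passed without mitochondrial transcripts. By Dunn's test fewer members passed in all 3 muscle comparisons, at lower shares of all genes, as listed below.

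Rpl3 differed most between muscles. It was lower in tibialis anterior than in soleus by 1.56 (log2 difference −1.56, adjusted p = 1.04e-05) and than in diaphragm (1.71 higher in diaphragm, adjusted p = 1.9e-07), with 14.4 to 18.3 TPM in tibialis anterior, 44.2 to 56.6 TPM in soleus and 46.0 to 66.5 TPM in mock diaphragm. Rps13 (−1.13) and Rps19 (−0.96) were the next in the comparison of tibialis anterior with soleus, and Rps19 (0.84) and Rps4x (0.76) in that of diaphragm with tibialis anterior. Rps19 is the gene most often mutated in Diamond-Blackfan anaemia. Members with the smallest differences that passed were Rpl24 (−0.46), Rps2 (−0.48) and Rpl36 (−0.52) between tibialis anterior and soleus, and these turned positive with median-ratio scaling. Between diaphragm and tibialis anterior they were Rpl15 (0.28), Rpl35 (0.30) and Rpl38 (0.32), which turned negative with that scaling. In diaphragm against soleus Rpl34 (−0.69, adjusted p = 0.00668), Rps13 (−0.53) and Rpl4 (−0.47) differed most, and Rpl8 (−0.25), Rpl7 (−0.30) and Rps23 (−0.30) least among those that passed. All these soleus libraries were of the low state, and for Rpl34 they stood at 63.5 to 75.6 TPM, above the 6 low-state diaphragms (50.3 to 59.7 TPM) and further above the 3 high-state ones (25.1 to 28.3 TPM).

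**Figure D4:**
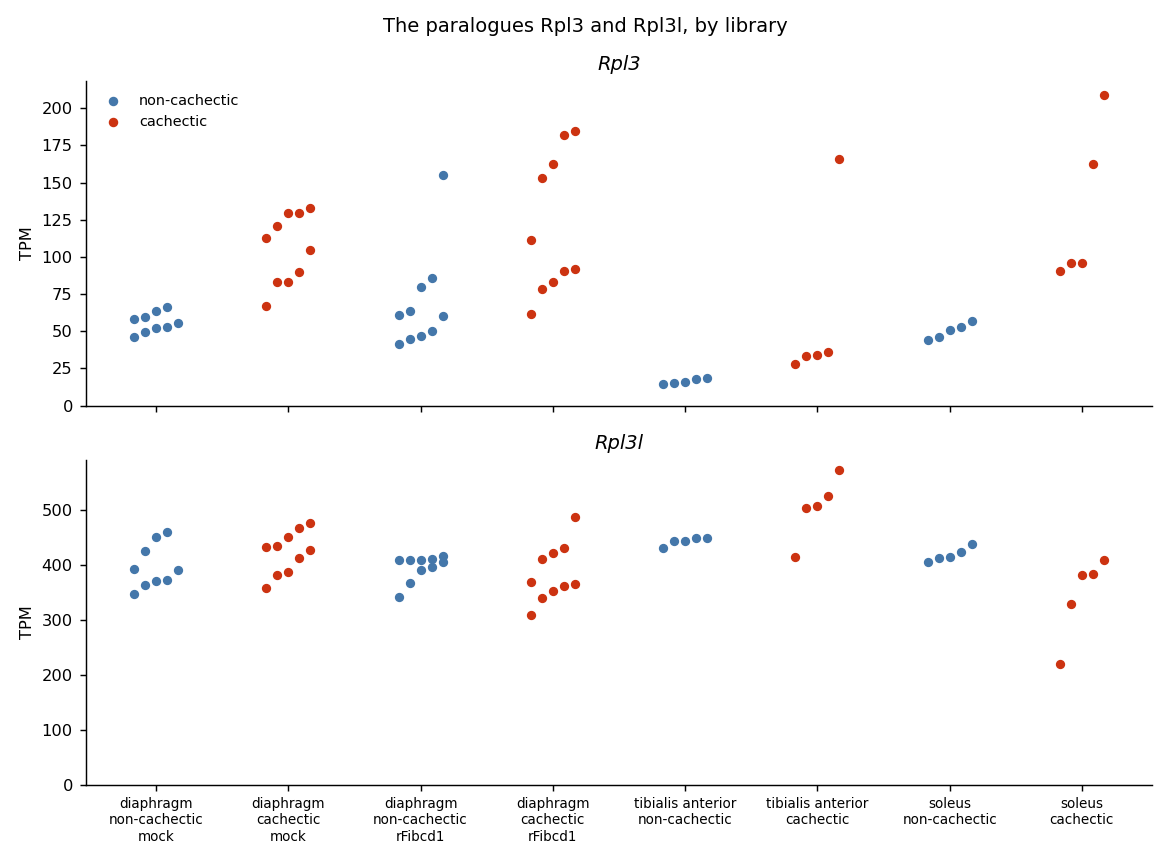
TPM of Rpl3 (top) and of its muscle paralogue Rpl3l (bottom) per library in the 8 groups. Rpl3 is higher with a cachectic melanoma in all 3 muscles, with single libraries of the rFibcd1 diaphragms and tibialis anterior at 155 and 166 TPM, while Rpl3l stays between 221 and 574 TPM.

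Whether the paralogues of a pair differed in their change was not tested, and each is given by its own values. Rpl3l (chr17:24727820-24736143, plus strand), the muscle form, was the more abundant of the Rpl3 pair in every group. It stood at 358, 430 and 476 TPM (lowest, median and highest) in mock diaphragm with a cachectic and at 348, 392 and 460 TPM with a non-cachectic melanoma, so the groups overlapped. In tibialis anterior it stood at 415, 504, 507, 526 and 574 TPM against 431 to 450 TPM, and in soleus at 221, 329, 382, 384 and 410 TPM against 406 to 438 TPM. Rpl3l passed the test in none of the 4 melanoma comparisons, and its sign depended on the scaling. In mock diaphragm it was 0.09 as TPM and −0.14 with median-ratio scaling. In tibialis anterior it was 0.18 and −0.32, and 0.25 without library 8 (adjusted p = 0.00205). In soleus it passed downward with quantile normalization (−0.54, adjusted p = 0.0347) and without mitochondrial transcripts (−0.55, adjusted p = 0.037).

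The share of Rpl3l in the sum of Rpl3 and Rpl3l had a lower mean with a cachectic melanoma. It was 80% ± 4.66 (SD, n = 10) against 87.6% ± 1.94 (n = 9) in mock diaphragm and 76.4% ± 8.24 (n = 10) against 85.4% ± 6.42 (n = 10) in rFibcd1 diaphragm. In tibialis anterior it was 89.6% ± 10.2 against 96.4% ± 0.336 (n = 5 each), and in soleus 72.0% ± 13.0 against 89.3% ± 1.06 (n = 5 each). Library 8 had the lowest share in both cachectic limb muscles, at 71.4 and 51.4%, and without it the means were 94.1% ± 0.787 (range 93.3 to 95%) and 77.2% ± 6.86 (range 67.0 to 81.9%, n = 4 each).

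In the Rps27 pair both members rose. Rps27 (chr3:90212522-90213651, minus strand) stood at 371, 424 and 585 TPM against 223, 261 and 287 TPM in mock diaphragm, without overlap, and rose by 0.77 (adjusted p = 0.000254). Rps27l (chr9:66946086-66949516, plus strand) stood at 83.1, 96.5 and 134 TPM against 72.6, 76.2 and 90.4 TPM, with overlap, and its difference was 0.34. In rFibcd1 diaphragm, tibialis anterior and soleus Rps27 rose by 0.64, 1.19 and 0.53 and Rps27l by 0.41, 0.62 and 0.43.

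Rpl36a (chrX:134585654-134588062, plus strand) and Rpl36al (chr12:69182731-69184083, minus strand) both rose too. In mock diaphragm Rpl36a stood at 106, 133 and 160 TPM against 67.9, 82.2 and 88.2 TPM and rose by 0.67 (adjusted p = 0.000335), while Rpl36al stood at 70.2, 91.3 and 121 TPM against 65.1, 75.6 and 79 TPM. Across rFibcd1 diaphragm, tibialis anterior and soleus the rise of Rpl36a was 0.72, 1.03 and 0.61 and that of Rpl36al 0.43, 0.74 and 0.39. Rpl39, at the exit of the peptide tunnel, rose by 0.67, 0.62, 0.96 and 0.65 in mock diaphragm, rFibcd1 diaphragm, tibialis anterior and soleus, while its testis paralogue Rpl39l stayed under the filter. Rps4x rose by 0.59, 0.56, 1.07 and 0.47 in the same order, with Rps4l at 0. Rpl10 (chrX:74270812-74273135, plus strand), one of the last proteins to join the large subunit, rose by 0.60, 1.20 and 0.60 in mock diaphragm, tibialis anterior and soleus and did not pass in rFibcd1 diaphragm (0.41, adjusted p = 0.062), beside the uncertainty from its copies.

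The stalk proteins recruit the translation factors that hydrolyse GTP. In mock diaphragm Rplp0 stood at 861, 1046 and 1432 TPM with a cachectic and 666, 702 and 856 TPM with a non-cachectic melanoma, without overlap, and rose by 0.54 (adjusted p = 0.000756). Rplp1 stood at 1263, 1446 and 2173 TPM against 873, 1004 and 1192 TPM and rose by 0.64 (adjusted p = 0.00206). Rplp2 stood at 208, 251 and 353 TPM against 145, 163 and 207 TPM and rose by 0.65 (adjusted p = 0.000523). All 3 rose in the other melanoma comparisons too, by 0.45, 0.57 and 0.47 in rFibcd1 diaphragm, by 0.65, 0.79 and 1.02 in tibialis anterior and by 0.51, 0.50 and 0.70 in soleus.

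Rps6, the small subunit protein that S6 kinase phosphorylates, stood at 349, 427 and 512 TPM against 249, 289 and 309 TPM in mock diaphragm, without overlap. It rose by 0.58 (adjusted p = 0.000208), and by 0.49, 0.88 and 0.53 in rFibcd1 diaphragm, tibialis anterior and soleus. Rpsa, a small subunit protein also known as a laminin receptor, stood at 445, 612 and 1041 TPM against 303, 486 and 552 TPM, with overlap. It rose by 0.43 (adjusted p = 0.0332) in mock and 0.48 (adjusted p = 0.0425) in rFibcd1 diaphragm, and its differences in tibialis anterior (0.42, adjusted p = 0.0903) and soleus (0.34, adjusted p = 0.0921) did not pass.

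Other genes of the translation machinery were described through lists. Of 7 tested ribosomal protein genes whose names fall outside the rule, 5 rose in mock diaphragm, 4 in rFibcd1 diaphragm, 5 in tibialis anterior and 4 in soleus, and none fell. Over all genes tested, 30.9, 7.14, 56.4 and 17.5% rose in these comparisons. Rps3a1 rose by 0.73, 1.29 and 0.89 in mock diaphragm, tibialis anterior and soleus. It was also higher in the high state (0.98, adjusted p = 1.57e-08), with means of 976.4 against 726.5 TPM among high-state mock diaphragms (n = 9 and 3), and of 474.3 TPM in the 6 low-state ones with a non-cachectic melanoma against 361.9 TPM in the only one with a cachectic melanoma. In the limb muscles its state and melanoma cannot be told apart. Fau, which encodes the small subunit protein eS30, rose by 0.58 in mock diaphragm. Of 60 ribosome biogenesis genes 32, 18, 44 and 32 rose in the same 4 comparisons, at medians of 0.24, 0.24, 0.56 and 0.29 and with none lower, which is 53.3, 30, 73.3 and 53.3% of them. Rrp12, which helps export the subunits from the nucleus, rose by 0.89 in mock diaphragm and 1.27 in soleus, and the nucleolar factor Noc2l by 0.69, 1.41 and 1.20 in mock diaphragm, tibialis anterior and soleus. Of 15 RNA polymerase I genes 8, 3, 9 and 5 rose (53.3, 20, 60 and 33.3%, in tibialis anterior close to the share of all genes), among them the subunit Polr1c by 0.46, 0.34, 0.65 and 0.37.

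Of 41 translation factors 28, 16, 33 and 22 rose (68.3, 39, 80.5 and 53.7%). The elongation factor Eef1a1 rose by 0.67 in mock diaphragm and 1.29 in tibialis anterior, and the RNA helicase Eif4a1 by 0.50, 0.59, 0.96 and 0.75 in the 4 comparisons. Of 23 genes of the mTORC1 pathway 11, 3, 17 and 7 rose (47.8, 13, 73.9 and 30.4%, again beside 30.9, 7.14, 56.4 and 17.5% of all genes). Among them was Ddit4, which encodes the mTORC1 inhibitor REDD1, with 2.17 (adjusted p = 2.25e-05), 2.69 and 1.94 in mock diaphragm, tibialis anterior and soleus, and with 0.84 in rFibcd1 diaphragm, where it did not pass. Eif4ebp1, an inhibitor of cap-dependent initiation, rose by 1.09, 0.91, 2.62 and 0.95, and the transcription factor Myc, which acts on many ribosome genes, by 1.47, 0.98, 1.74 and 1.36. In both comparisons of rFibcd1 with mock no gene of these 5 lists passed limma's test.

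Markers of other cells moved with some of these comparisons. All 3 neutrophil genes tested rose in mock diaphragm, where the list summed to 9.56 to 57.1 TPM with a cachectic and 3.00 to 20.6 TPM with a non-cachectic melanoma, and 2 of 2 rose in tibialis anterior and in soleus. Of the macrophage genes 3 of 6 rose in mock diaphragm (list sums of 120 to 431 and 73.4 to 169 TPM), 5 of 5 in tibialis anterior and 1 of 6 in soleus, and none in rFibcd1 diaphragm. In rFibcd1 diaphragm no neutrophil gene passed either, at differences of 0.83 to 1.41 for the 3 tested. Of the 6 fibre genes Myh7 and Ckm rose in mock diaphragm, Acta1 and Myh7 in soleus and Myh7 in tibialis anterior, where Acta1 (−0.87), Myh1 (−0.55) and Myh2 (−0.75) fell. Of the 5 fibroblast genes Dcn rose in mock diaphragm (0.47), Dcn (1.00) and Pdgfra (0.78) in tibialis anterior, while Col1a1 (−2.33, adjusted p = 0.0011), Lum (−1.13) and Dcn (−0.72) fell in soleus. The endothelial genes Vwf and Pecam1 rose in mock diaphragm and tibialis anterior and Vwf in soleus, and Kdr fell in rFibcd1 diaphragm and both limb muscles. Of the adipocyte genes Cfd rose in mock diaphragm and Fabp4 in tibialis anterior, and no tested gene of the B and plasma cell, red cell or proliferation lists passed in a melanoma comparison. The part of these cells in the ribosomal protein values was not tested.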

How the data were processed

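RNA from 59 muscle samples was made into libraries with a TruSeq kit and sequenced on an Illumina instrument whose model differs between the labels and the study's methods. The authors aligned reads to mm10 in CLC Genomics Workbench and deposited TPM per gene symbol for the whole series. The annotation and the treatment of reads that match several places are not given in the sources used here. TPM columns sum to 1000000 and keep no depth, so that precision rests on the number of samples. No column was without a sample. The members and the gene lists were chosen with earlier results of these data known.

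Genes at 1 TPM or more in as many samples as the smallest group were tested on log2(TPM + 1) with limma (3.58.1, R 4.3.3), in a model of the 4 diaphragm groups, of tibialis anterior, of soleus, or, between muscles, of the mock diaphragms and the limb muscles together. P-values were Benjamini-Hochberg adjusted over all genes tested, and genes under 0.05 were called. The study applied rank tests (Kruskal-Wallis, then Dunn) to log TPM, and Dunn's test was run here as an alternative. The code was tested on simulated data with 200 changed genes. Named in the text were the 3 largest and 3 smallest differences among called members of each comparison, the paralogue pairs, the stalk proteins, Rps6 and Rpsa. For the pathway lists up to 4 called genes were named, not always the largest. Polr1b, for instance, rose more than Polr1c in both limb muscles. Rps12, Rpl34, the members that differed by library state and those that did not pass were named after their values were seen.

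Copies were found with BLAST+ (2.17.0+) between coding sequences and transcripts of GENCODE mouse release 21, at 95% identity over 80% of the length. Gene positions are from that release. Start windows and promoters are from RefSeq (GRCm38.p6). Tables and plots were made with Python 3.11.15, pandas 2.3.3 and matplotlib 3.10.9. As alternatives, results were recomputed without the filter or with a mean of 5 TPM, with 0.1 as pseudocount, with median-ratio scaling, quantile normalization, TPM without mitochondrial transcripts, limma's array weights, Dunn's test, only the groups compared, the column number as a replicate block, each library left out, and the library state as a term or the high-state libraries alone. Adding near-identical copies to their member was chosen after seeing the data.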

Additional observations from a re-analysis of the deposited data

Results flagged for a closer look

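In 40 sets of 4 to 10 samples the highest or lowest library was compared with the rest of its group by Dixon's gap, which chance passes in about 1 of 20 sets. For the summed share of ribosomal protein genes in all TPM, 1 library stood above its group in diaphragm with a cachectic melanoma and rFibcd1 (6.02%, next 4.16%), in diaphragm with a non-cachectic melanoma and rFibcd1 (3.07%, next 2.49%) and in tibialis anterior with a cachectic melanoma (5.68%, next 2.66%). Rpl3 stood apart in the last 2 of these libraries, at 155 TPM (next 85.7 TPM) and 166 TPM (next 36.2 TPM). The share of Rpl3l in the sum of Rpl3l and Rpl3 was lowest in the same libraries, at 68.8% (next 82.1%) and 71.4% (next 93.3%).

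The melanoma difference of 6 members stood higher in tibialis anterior than in soleus by the interaction term in limma. The log2 differences of the effects were 0.67 for Rps27, 0.60 for Rps4x, 0.58 for Rpl22, 0.54 for Rps9, 0.49 for Rpl7a and 0.49 for Rpl3l, in a comparison in which 20.4% of all genes differed. For Rpl3l the effects themselves were 0.18 and −0.31 and neither passed.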

How the results depend on the processing

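The number of ribosomal protein genes called in the 4 melanoma comparisons was 76, 73, 74 and 75 (mock diaphragm, rFibcd1 diaphragm, tibialis anterior, soleus), and 0 in the rFibcd1 comparisons. Percentages in brackets are the shares of all genes called under the same setting. They are not listed for the refits with 1 library left out, so those ranges say nothing particular about the members. With median-ratio scaling it was 42 (15.8%) in mock diaphragm, 1 (11.5%) for the melanoma effect in tibialis anterior against soleus, 13 (53.3%) for tibialis anterior against soleus, 26 (70.9%) for diaphragm against tibialis anterior and 31 (47.2%) for diaphragm against soleus. With quantile normalization it was 1 (2.97%) for the melanoma effect in diaphragm against tibialis anterior, 43 (46.3%) for tibialis anterior against soleus and 37 (64.8%) for diaphragm against tibialis anterior. Without mitochondrial transcripts it was 27 (16.8%) and 32 (33%) for the melanoma effect in tibialis anterior against diaphragm and soleus, and 5 (44.2%) for diaphragm against soleus. With array weights it was 5 (39.9%) for rFibcd1 in non-cachectic diaphragm, 61 (60.1%) for diaphragm against soleus, and 4 (11%), 1 (5.49%) and 11 (26.7%) for the melanoma effect in diaphragm against tibialis anterior, in diaphragm against soleus and in tibialis anterior against soleus. With Dunn's test it was 0 (0%) in rFibcd1 diaphragm, 22 (37%) for tibialis anterior against soleus, 1 (51%) for diaphragm against tibialis anterior and 0 (8.73%) for diaphragm against soleus. It was 0 (0%) in rFibcd1 diaphragm among high-state libraries, 41 (2.61%) there and 2 (19.6%) for rFibcd1 in non-cachectic diaphragm with only the groups compared, and 3 (9.89%) for the melanoma effect in tibialis anterior against soleus with no filter. With each library left out in turn (449 refits) the counts were 74 to 77, 71 to 76, 73 to 77 and 72 to 76 in the 4 melanoma comparisons, 0 to 4 and 2 to 14 for the melanoma effect in tibialis anterior against diaphragm and soleus, and 73 to 75, 59 to 71 and 7 to 47 for the muscles (tibialis anterior against soleus, diaphragm against tibialis anterior and soleus). Of these counts under alternatives 535 stayed within 1.5 times the value reported and 47 did not. The cause of these moves was not tested. Adding near-identical copies to their member, chosen after seeing the data, gave 77, 77, 75 and 77 (33.5, 9.05, 60.3 and 25.1%).

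Numbers in the column names recur between muscles. Samples with the same number deviated from their group means with a correlation over 0.1 in 28 of 30 pairs (0.0101 to 0.502, median 0.298), and no label says what the number marks. With this number as a replicate block the melanoma effect differed for 13 members in diaphragm against tibialis anterior, 1 in diaphragm against soleus and 35 in tibialis anterior against soleus, and 41 members differed between diaphragm and soleus. As parts of all members tested, these counts lay near or below the shares of all genes given in the Results. No paired analysis was possible because the groups share no numbers in the comparisons within one muscle.

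Rpl3l turned in mock diaphragm with median-ratio scaling (−0.14), quantile normalization (−0.19), no mitochondrial transcripts (−0.15) and high-state libraries (−0.10). In tibialis anterior it turned with the first 3 of these (−0.32, −0.16 and −0.06). It also turned for the interaction with rFibcd1 (0.016 with median-ratio scaling and 0.019 in the high state), for the melanoma effect in diaphragm against tibialis anterior (0.18 with median-ratio scaling) and for diaphragm against soleus (0.035 with quantile normalization, 0.086 without mitochondrial transcripts). Rpl3 turned for the interaction (0.087, 0.011 and 0.020 under the 3 scalings, 0.070 with state as a term, and from −0.146 to 0.075 with 1 library left out), for rFibcd1 in cachectic diaphragm with array weights (−0.012), and for the melanoma effect in tibialis anterior against soleus (−0.26, −0.13, −0.22 with array weights, and from −0.33 without tibialis anterior cachectic library 8 to 0.32 with 1 library left out). With median-ratio scaling Rpl36 (0.11), Rps2 (0.14) and Rpl24 (0.17, and 0.029 with quantile normalization) turned for tibialis anterior against soleus, and Rpl15 (−0.29), Rpl35 (−0.28) and Rpl38 (−0.26, and −0.078 with quantile normalization) for diaphragm against tibialis anterior. Of 681 differences of single named genes under other settings, 552 kept sign and side of the threshold.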

Other observations

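In diaphragm (mock), tibialis anterior and soleus with a cachectic melanoma, the library with the largest share of ribosomal protein transcripts carries the same number, 8, in the table's columns. Its shares were 3.93, 5.68 and 4.63%. The next highest shares of these groups were 3.88, 2.66 and 3.71%, so in diaphragm library 8 hardly stood apart. The labels do not say whether this number marks an animal.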
